A study of Homo sapiens with 2 samples.

Results

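CD74 encodes the invariant chain, and its transcripts were followed here through all 262 transcript models that the deposited table names CD74, of 237608 models in the table. The 2 libraries are replicates 1 and 2 of the human B-lymphoblastoid line GM12878, an established line of B cells transformed with Epstein-Barr virus. Both are Oxford Nanopore direct RNA libraries, for which each native strand is pulled through a pore, 3′ end first, with no PCR step, and the labels give no treatment, genotype or second cell type. The labels do not say whether the libraries came from separate cultures, so every p-value below compares the reads of these 2 libraries and measures nothing between conditions. Replicate 1 held 1360368 reads, 10565 of them in 163 CD74 models, and replicate 2 held 1510998 reads, 12221 of them in 190 CD74 models. The B cell markers MS4A1, CD79A, CD79B, CD22 and PAX5 were read in both libraries, from 54 and 70 reads for PAX5 to 936 and 1026 reads for CD79A. The 14 markers of T, natural killer, monocytic, dendritic, red, liver and fibroblast cells summed to 48.5 and 64.9 CPM (reads scaled to the size of the library). Of these 14, CD3D, GNLY, LYZ, CLEC9A, GATA1, HBB and ALB had 0 reads in either library. The others were read: NKG7 had 35 and 37 reads, CD1C 17 and 24, CD3E 5 and 16, and CD2 3 and 10. CSF1R had 2 and 6 reads, COL1A1 2 and 3, and CD14 2 in each library. A count of 0 allows a level of up to 2.21 CPM (replicate 1) or 1.99 CPM (replicate 2).

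The invariant chain is a membrane protein that assembles with newly made MHC class II molecules in the endoplasmic reticulum, blocks their peptide groove and directs them to endosomes. There proteases cut it down to a fragment in the groove, which is then exchanged for antigenic peptide. In B cells it is among the abundant products of antigen presentation, and a part of it at the cell surface binds the cytokine MIF. Alternative splicing of 1 exon inserts a thyroglobulin type-1 domain, a cysteine-rich module found in some inhibitors of cysteine proteases.

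CD74 (ENSG00000019582) lies on the minus strand of chromosome 5, from 150401637 to 150412929 (GRCh38, GENCODE release 29). Of its 12 annotated transcripts, 8 had a read in either library. CD74-202 has 8 exons and 1449 bases and codes for 232 amino acids, the short form of the invariant chain. CD74-201 has 9 exons and 981 annotated bases and codes for 296 amino acids, the long form. CD74-203 has 6 exons and 1138 bases and codes for 160 amino acids. CD74-201 differs from CD74-202 in its coding part by exon 7, which is 192 bases long (chromosome 5, 150403121 to 150403312) and lies wholly within the coding sequence. Its 64 codons' worth of sequence keeps the reading frame, and it raises the number of cysteine codons from 2 in CD74-202 to 8 in CD74-201. CD74-203 joins exon 4 directly to the exon that is exon 7 of CD74-202. It leaves out 184 bases, which is no multiple of a codon, and its coding sequence ends early.

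The alternative exon is shown because its presence separates the long from the short form. It is read from the GENCODE release 29 transcript sequence at chr5:150403121-150403312, minus strand, 5′ to 3′, and capitals mark the 6 in-frame cysteine codons.
CD74-201 exon 7: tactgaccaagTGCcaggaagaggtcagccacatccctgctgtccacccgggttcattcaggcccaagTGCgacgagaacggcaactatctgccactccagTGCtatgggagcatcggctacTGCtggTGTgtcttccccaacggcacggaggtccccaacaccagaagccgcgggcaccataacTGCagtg

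The exon junctions that tell the forms apart are shown with 15 bases on each side, and capitals mark the 2 bases before and the 2 bases after each junction.
CD74-202 exons 6 and 7: acgctccaccgaaAGAGtcactggaactgg
CD74-201 exons 6 and 7: acgctccaccgaaAGTActgaccaagtgcc
CD74-201 exons 7 and 8: accataactgcagTGAGtcactggaactgg
CD74-203 exons 4 and 5: atgcacctgctccAGAGtcactggaactgg
The first, the third and the fourth junction run into the same downstream exon, so a read that begins inside that exon cannot be given to a form.

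The short form made up nearly all reads that matched an annotated CD74 transcript. CD74-202 had 7410 reads in replicate 1 and 6227 in replicate 2, which were 94.9% (95% Wilson interval 94.4 to 95.4%) and 95.4% (94.9 to 95.9%) of the reads in known models, those that match an annotated transcript. Its mean share was 95.2% ± 0.346 (SD, n = 2), and its level was 4784 CPM ± 938 (SD, n = 2). The long form CD74-201 had 365 and 227 reads, or 4.68% (4.23 to 5.17%) and 3.48% (3.06 to 3.95%) of the reads in known models, with intervals that did not overlap. Its level was 268 CPM in replicate 1 and 150 CPM in replicate 2. CD74-203 had 16 and 11 reads, 0.205% and 0.169% of the known reads. The intervals cover counting error only.

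**Figure D1:**
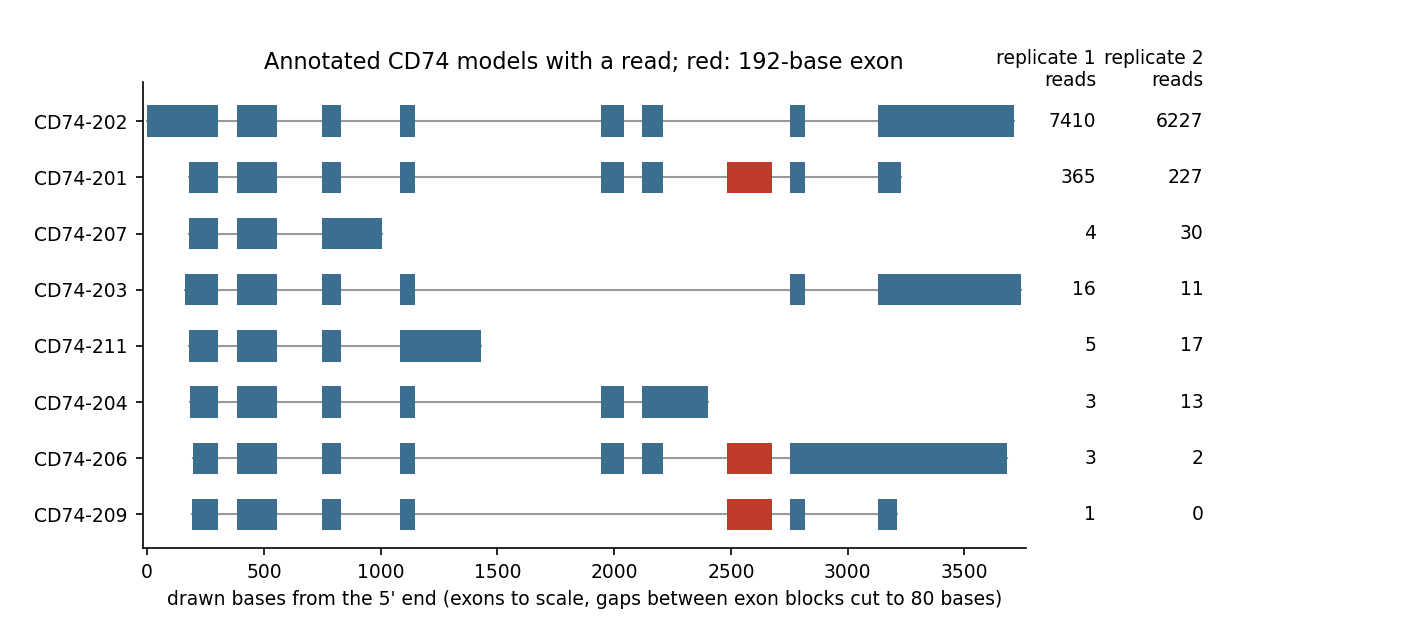
The 8 annotated CD74 models with a read, drawn 5′ to 3′ with exons to scale and the gaps between exon blocks shortened, and the reads of each library at the right. The 192-base exon (red) is in CD74-201, CD74-206 and CD74-209, and CD74-202 without it has 7410 and 6227 reads.

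The use of CD74-202 against the other known models did not pass the threshold between the libraries (a difference of 0.489 percentage points, adjusted p = 0.414, Fisher's exact test with Benjamini-Hochberg adjustment over 1175 genes, of which 20.2% passed). When the long form was set against the short form alone, a comparison added after the data had been seen, its share of the reads of these forms was 4.69% in replicate 1 and 3.52% in replicate 2. It was lower in replicate 2 by this test (adjusted p = 0.00419, Fisher's exact test), and 3.49% of the 1175 genes had a drop of the lesser form that passed. The other 6 known models together had 32 reads in replicate 1 and 73 in replicate 2. Most of that difference lay in 3 retained-intron models, transcripts that end inside what is an intron of CD74-202. CD74-207, of 3 exons, had 4 and 30 reads. CD74-211, of 4 exons, had 5 and 17 reads. CD74-204, of 6 exons, had 3 and 13 reads. CD74-206, which holds the 192-base exon and a longer last exon, had 3 and 2 reads, and CD74-209, an annotated target of nonsense-mediated decay, had 1 and 0 reads.

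A smaller share of the CD74 reads lay in known models in replicate 2 than in replicate 1. Known models held 7807 of 10565 reads in replicate 1, a share of 73.9% (73.0 to 74.7%), and 6527 of 12221 reads in replicate 2, a share of 53.4% (52.5 to 54.3%). The mean over the libraries was 63.7% ± 14.5 (SD, n = 2). The known share fell by 20.5 percentage points from replicate 1 to replicate 2 (adjusted p = 5.67e-224, Fisher's exact test over 6340 genes). A lower known share in replicate 2 passed in 26.9% of these genes, and a higher one in 0.268%. CD74 thus stands among many genes that differ in this direction. The median gene had a known share of 32.5% in replicate 1 and 17.5% in replicate 2, and CD74 lay above 5380 of the 6340 genes in replicate 1. The median difference over all genes was -8.62 percentage points, and 1002 genes had a larger drop than CD74.

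Incomplete splice matches (ISM), whose junctions are an uninterrupted part of those in an annotated transcript, took 1339 CD74 reads in replicate 1 and 2879 in replicate 2. Their share was 12.7% (12.1 to 13.3%) and 23.6% (22.8 to 24.3%), a rise of 10.9 percentage points that passed (adjusted p = 2.95e-98, Fisher's exact test), as did a rise in 22.2% of all genes tested. Both CD74 shares were below those of the median gene, 24.1% in replicate 1 and 33.3% in replicate 2. The median difference over all genes was 6.68 percentage points. Genomic models, which overlap the gene without matching its splicing, took 914 reads, 8.65% (8.13 to 9.20%), and 2345 reads, 19.2% (18.5 to 19.9%). That rise of 10.5 percentage points passed as well (adjusted p = 1.82e-114, Fisher's exact test), against 10.4% of all genes with a rise that passed. One model of 1 exon and 516 bases, ENCODEHT000429365, held 912 and 2337 of the genomic reads, 8.63% and 19.1% of all CD74 reads. It was the most read CD74 model after CD74-202 in each library. The table gives no coordinates, so its place within the gene is unknown. For comparison, the last exon of CD74-202 has 581 bases.

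Models with new splicing held few CD74 reads. Those that join annotated splice sites in a new combination (NIC) had 189 and 171 reads, 1.79% and 1.40%, and those with an unannotated splice site (NNC) had 316 and 299 reads, 2.99% and 2.45%.

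**Figure D2:**
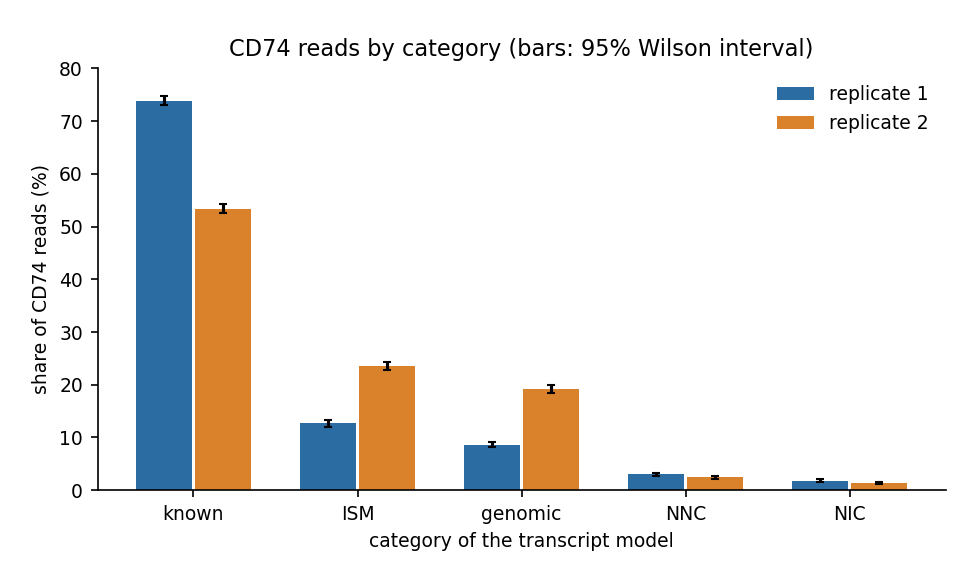
Share of CD74 reads (y axis, percent) in each model category for replicate 1 and replicate 2, with 95% Wilson intervals. The known share is 73.9% and 53.4%, while the ISM share (12.7% and 23.6%) and the genomic share (8.65% and 19.2%) are higher in replicate 2.

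Most ISM reads retained the 3′ end, as they did in the median gene. Suffix models, defined by that, took 1120 of 1339 ISM reads in replicate 1 and 2334 of 2879 in replicate 2, or 83.6% (81.6 to 85.5%) and 81.1% (79.6 to 82.5%). Their mean share was 82.4% ± 1.82 (SD, n = 2), and the difference of -2.57 percentage points did not pass (adjusted p = 0.394, Fisher's exact test over 2529 genes, of which 2.77% passed in either direction). A further 191 and 452 reads lay in models that the table files under both the suffix and the prefix subtype. One of these, ENCODEHT000429400 of 5 exons and 924 bases, held 183 and 431 of them.

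The lengths of the much-read ISM models matched whole runs of the last exons of CD74-202. With the last exon drawn to the annotated 3′ end of the gene, the last 2 exons sum to 677 bases, the last 3 to 765, the last 4 to 861, the last 5 to 924, the last 6 to 1004 and the last 7 to 1177. Models of exactly these exon numbers and lengths were in the table, and so were models of 869, 957, 1053, 1116, 1196 and 1369 bases, the corresponding runs with the 192-base exon. Models matched in this way, 14 in all, held 1264 of 1311 suffix and both-subtype reads in replicate 1 (96.4%) and 2694 of 2786 in replicate 2 (96.7%). A model's length is thus that of its whole exons and says nothing of where within the first exon the 5′ end of a read lay. Exons are numbered below as in CD74-202.

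Among the matched reads, those that stopped short of exon 1 were spread over all of exons 2 to 7, and each of these exons had more of them in replicate 2. Of 9039 reads in the matched models and the 2 main known forms, 7775 reached exon 1 in replicate 1, a share of 86.0% (85.3 to 86.7%). In replicate 2 it was 6454 of 9148, or 70.6% (69.6 to 71.5%). The 9039 and 9148 reads were 85.6% and 74.9% of all CD74 reads. Models of 1 exon were not matched, among them ENCODEHT000429365 with 912 and 2337 reads. Reads that lie in the last exon alone therefore have no place in these shares. Exon 2, of 173 bases, was the first exon of 377 and 732 reads, 4.17% (3.78 to 4.60%) and 8.0% (7.46 to 8.58%) of the matched reads. Exon 6, of 88 bases, was the first exon of 239 and 615 reads, 2.64% (2.33 to 3.00%) and 6.72% (6.23 to 7.25%).

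Exon 5 (96 bases) began 207 and 444 reads, exon 4 (63 bases) 194 and 446, exon 3 (80 bases) 113 and 201, and exon 7 (63 bases) 107 and 208. The ratio of replicate 2 to replicate 1 reads ran from 1.78 at exon 3 to 2.57 at exon 6. Among matched reads that reached an exon, the share that went no further was compared over exons 2 to 7, without the last exon. It was highest at exon 2 in both libraries, with 4.62% and 10.2%. It was next highest at exon 6, with 2.68% and 6.92%. Exons of the same 63 bases differed: 2.29% and 5.69% of the reads reaching exon 4 stopped there, against 1.18% and 2.27% at exon 7. The order of the exons by this share was not the order of their lengths. These shares are descriptions of 1 gene in 2 libraries and were not tested. Why a read did not reach exon 1 was not tested either.

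**Figure D3:**
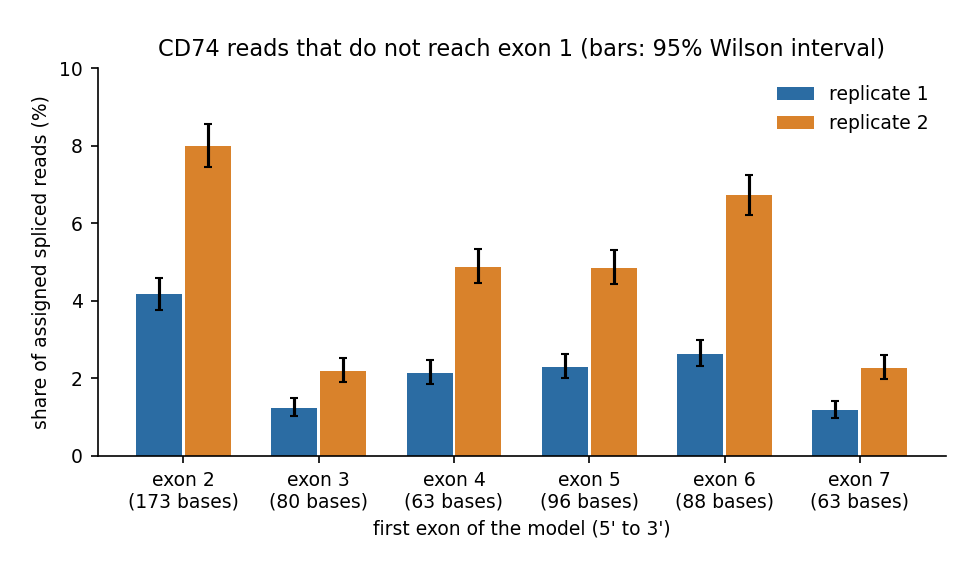
Share of the matched CD74 reads (y axis, percent) whose first exon is exon 2 to exon 7 of CD74-202, for each library, with 95% Wilson intervals. Exon 1, with 86.0% and 70.6% of the reads, and the 192-base exon are left out, and at every exon drawn the bar of replicate 2 is the higher one, from 2.20% at exon 3 to 8.0% at exon 2.

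The share of the long form in reads that did not reach exon 1 lay within counting error of its share in reads that did. Each run that begins at exons 1 to 6 exists with and without the 192-base exon, so its inclusion could be counted separately for each first exon. Over all of them, 412 of 8905 reads held the exon in replicate 1, 4.63% (4.21 to 5.08%), and 310 of 8892 in replicate 2, 3.49% (3.12 to 3.89%), a mean of 4.06% ± 0.806 (SD, n = 2). Among reads that did not reach exon 1 the counts were 47 of 1130 and 83 of 2438, or 4.16% (3.14 to 5.49%) and 3.40% (2.75 to 4.2%). These intervals held the values of the reads that reached exon 1, 4.69% and 3.52%. By first exon, inclusion ran from 2.92% at exon 2 to 5.67% at exon 4 in replicate 1, and from 1.99% at exon 3 to 4.28% at exon 5 in replicate 2. The counts behind these values are small, from 4 to 27 reads with the exon at each of exons 2 to 6, and their intervals overlapped within each library. Replicate 1 was the higher at 5 of the 6 first exons, and exon 2 was the exception, with 2.92% and 3.69%. A further 27 and 48 reads began within the 192-base exon itself and have no counterpart without it.

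**Figure D4:**
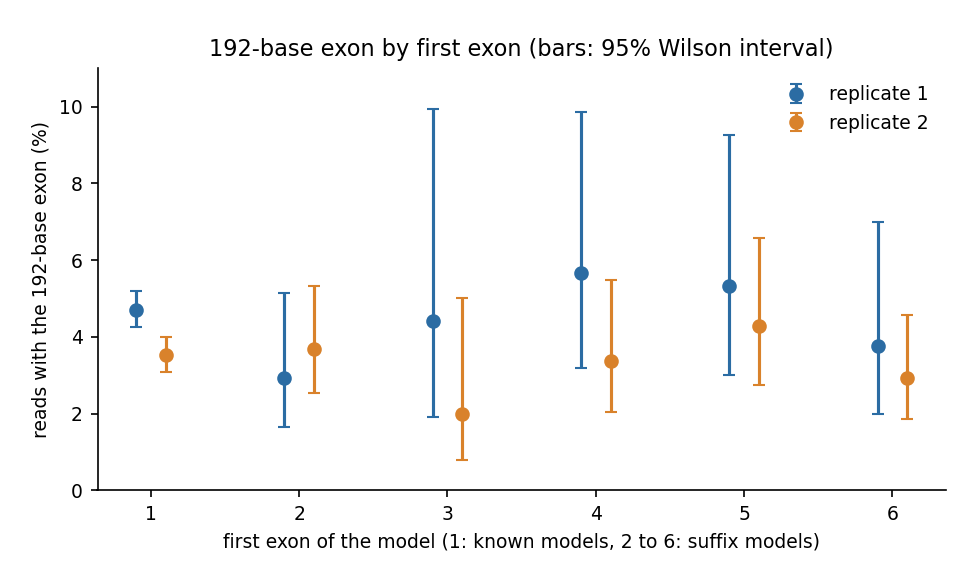
Share of CD74 reads with the 192-base exon (y axis, percent) by the first exon of the model, for each library, with 95% Wilson intervals. The points lie between 1.99% and 5.67%, and at exons 2 to 6 the intervals of the 2 libraries overlap.

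ISM models filed by the table under the prefix subtype alone, as keeping the 5′ end, held few reads in both libraries. Those filed under both subtypes, with 191 and 452 reads, are left out here. The 12 models of the prefix subtype alone had 28 reads in replicate 1, 0.265% (0.183 to 0.383%) of the CD74 reads. In replicate 2 they had 92 reads, 0.753% (0.614 to 0.922%). ENCODEHT000453507, of 5 exons and 535 bases, had 4 reads in replicate 1 and 42 in replicate 2, where it was the most read of them. ENCODEHT000429830, of 7 exons and 1611 bases, had 15 and 19 reads and was the most read in replicate 1, and ENCODEHT000453616, of 2 exons and 288 bases, had 5 and 15 reads. Together with the 3 retained-intron transcripts, these models had 40 reads, 0.379%, and 152 reads, 1.24%. Their share was higher in replicate 2 and was not tested.

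Most reads with new splicing lay in models with as many exons as the short form. Models of 8 exons, the number of CD74-202, took 395 of the 505 NIC and NNC reads in replicate 1 (78.2%) and 375 of 470 in replicate 2 (79.8%). With the first exon of CD74-201 and the last exon to the annotated 3′ end of the gene, the 8-exon run of the short form would have 1304 bases. Of the 8-exon NIC and NNC reads, 90.9% and 91.2% lay in models within 30 bases of that length, a limit set after the lengths had been seen. ENCODEHT000429380, an NNC model of 1298 bases, had 114 and 133 reads, 1.08% and 1.09% of the gene, with overlapping intervals. ENCODEHT000429654, of 1303 bases, had 54 and 55 reads. The NNC model ENCODEHT000429812 was shorter, at 1062 bases, and had 21 and 19 reads. The 3 most read NIC models by their lower count, ENCODEHT000429372 (1296 bases), ENCODEHT000429836 (1288 bases) and ENCODEHT000429520 (1307 bases), had 35 and 33, 23 and 21, and 16 and 24 reads. These 6 models were picked by their lower count, so how even their counts are is no result. Models of 9 exons, the number of the long form, took 32 and 20 of the NIC and NNC reads. Small differences in length can come from a shifted splice site or from a different end, which the table cannot separate.

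Of the 262 CD74 models, 150 (57.3%) rested on 1 read and 91 (34.7%) had a read in both libraries. Single reads supported 68 of 101 NIC models and 47 of 69 NNC models, against 30 of the 77 ISM models and 1 of the 8 known ones. At least 5 reads in each library were found for 32 models, of which 16 were ISM, 4 known, 4 NIC, 7 NNC and 1 genomic. The mean number of exons of the model, weighted by reads, was 7.02 in replicate 1 and 5.89 in replicate 2, and the mean model length was 1281 and 1130 bases.

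At the level of the whole gene, replicate 1 gave CD74 7766 CPM and replicate 2 gave it 8088 CPM, on average 7927 ± 228 (SD, n = 2). The log2 ratio of replicate 2 to replicate 1 was 0.06 (adjusted p = 0.0462, two-sided exact binomial test over 10634 genes, of which 2.72% were higher in replicate 2 by it). In such bulk libraries, fewer cells that make an RNA and less of it per cell cannot be told apart. The call was lost with TMM scaling (0.04, adjusted p = 0.365) and when all 16645 genes with a read were tested (adjusted p = 0.0722). The ratio turned negative when reads in genomic models were left out (-0.12) or reads in known models alone were counted (-0.41). In these settings the library totals still counted all reads, and the median of all genes also fell, to -0.15 and -0.55. CD74 stayed above the median of all genes in each, as with all models (0.06 against 0.01).

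Among the 5 genes whose division among the categories was most like that of CD74, HLA-DQA1 was the only class II gene. Over the 7 category shares in the 2 libraries, 14 values, and among 317 other genes with at least 500 reads in each library, HLA-DQA1 was the nearest, at a Euclidean distance of 7.50 percentage points, where the median gene was at 48.6. HLA-DQA1, an alpha chain of the class II molecule, had known shares of 69.9% and 49.0%, ISM shares of 13.99% and 24.6% and genomic shares of 10.2% and 22.1%. SLC25A6, a mitochondrial carrier of adenine nucleotides, was at 10.8, with known shares of 76.8% and 55.3%. RAN, a GTPase of nuclear transport, was at 11.3, PPP1CA, a catalytic subunit of protein phosphatase 1, at 15.2, and PRDX1, a peroxiredoxin, at 15.8.

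The genes that work with the invariant chain were read alongside it, and most had a lower known share in replicate 2, as had CD74 and the median gene. Of the 28 genes of the class II presentation list, 24 had at least 20 reads in each library. Their known share was lower in 21, and 10 of these passed the test, where 26.9% of all genes did. It was higher in HLA-DPA1 (0.163% and 0.693%), NFYA (8.33% and 8.70%) and CXCR4 (93.3% and 98.4%), and none of these rises passed. The drop was not particular to the list: the median difference over the 24 genes was -7.68 percentage points, against -8.62 over all genes. The groups of the list differed. The median difference was -17.7 over the class II chains, where 5 of 6 genes passed, and -7.46 over the transcription genes, where 0 of 7 passed. It was -9.21 for peptide exchange, -6.76 for processing and -2.09 for the surface partners and ligand. HLA-DRA, the alpha chain of HLA-DR, had known shares of 75.5% and 51.9%. HLA-DQB1, a beta chain, had 69.1% and 43.8%. IFI30, a lysosomal thiol reductase, had 97.6% and 91.6%, and SPPL2A, the membrane protease that removes the last stub of the invariant chain, had 46.4% and 2.86% on 28 and 35 reads. MIF, the ligand of surface CD74, had 98.6% and 96.5%.

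**Figure D5:**
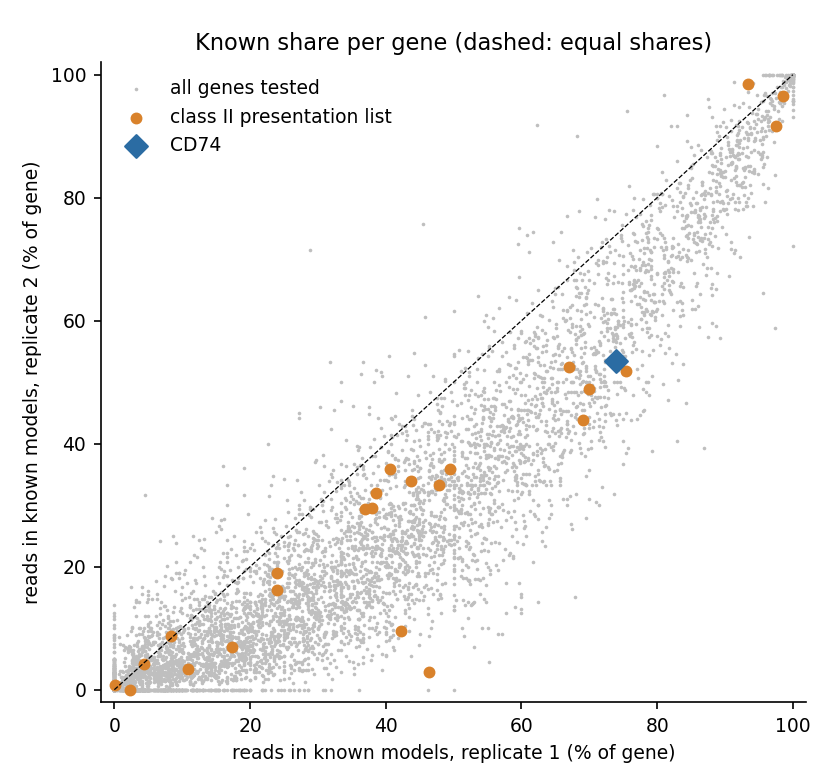
Share of a gene's reads in known models in replicate 1 (x axis) and replicate 2 (y axis), in percent, for the 6340 genes with at least 20 reads in each library, with the class II presentation list and CD74 marked. CD74 lies at 73.9% and 53.4%, below the line of equal shares, as do 21 of the 24 listed genes and the medians of all genes drawn (32.5% and 17.5%).

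At the gene level, 27 of the 28 listed genes had at least 10 reads. In replicate 2, 3 were higher and 5 lower by the exact binomial test, with a median log2 ratio of -0.05 over the list and 0.01 over all genes, of which 2.72% were higher and 2.33% lower. Among the 7 class II chains, HLA-DRA had 2765 and 2394 CPM and a log2 ratio of -0.21 (adjusted p = 7.97e-08, exact binomial test), and HLA-DQA1 had 946 and 795 CPM and -0.25. HLA-DRB1 had 1944 and 1856 CPM and HLA-DPB1 929 and 899 CPM, differences that did not pass. Class II genes are polymorphic and alike, so the split of reads among the DRB genes is uncertain. Of the 4 peptide exchange genes, HLA-DMB, a chain of the molecule that helps to release the invariant chain fragment, had 233 and 127 CPM, a log2 ratio of -0.87 that passed, and HLA-DMA had 330 and 251 CPM and -0.40, which also passed.

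Of the 6 processing genes, IFI30 was lower in replicate 2 (395 and 260 CPM, log2 ratio -0.60). CTSS, the cysteine protease that cuts the invariant chain in B cells, had 50 and 63 reads, a difference that did not pass, and CTSL, a related protease, had 0 reads in both libraries. The 8 transcription factor genes had adjusted p-values of 0.375 and above (exact binomial test), and CIITA, the class II transactivator, had 92 and 88 reads. The ligand MIF and both surface partners listed were higher in replicate 2. MIF had 1593 and 2096 CPM (log2 ratio 0.40), CD44, a coreceptor, 134 and 183 CPM (0.45), and CXCR4, a chemokine receptor that pairs with CD74, 75 and 189 reads (1.18, adjusted p = 6.02e-08, exact binomial test). The CD44 call was lost without genomic models (0.25, adjusted p = 0.359, exact binomial test) and with known models only (0.10, adjusted p = 0.813). Library totals still counted all reads in these settings. The median of all genes was then -0.15 and -0.55, against 0.01 with all models, so the CD44 ratio stayed above it in each.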

How the data were processed

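For 2 direct RNA libraries, the authors deposited unnormalized counts of reads for each transcript model, with the exon number and length of each model (other, descriptive values, per the file headers). Minimap2 and hg38 are listed in the submitters' processing notes, and TALON is named with the table; versions, filters and the annotation release are not given in the sources used here. The identifiers, lengths and exon numbers of the 8 known CD74 models matched GENCODE release 29, from which positions and sequences were taken.

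A gene's count was the sum of its models. Gene levels were set against the library totals in an exact binomial test, two-sided (at least 10 reads in both libraries together), and shares with Fisher's exact test (at least 20 reads in each library), with Benjamini-Hochberg adjustment over all genes and a threshold of 0.05 (Python 3.11.15, scipy 1.17.1). For isoform use, a gene also needed 2 known models of at least 10 reads. Log2 ratios used 0.5 added reads. TMM (edgeR 4.0.16) and DESeq2 (1.42.0) scalings were alternatives. Scripts were tested on simulated data. With 1 group there is no test between conditions. The floor at 0 reads is 3 reads. One read was worth 0.735 CPM in replicate 1 and 0.662 CPM in replicate 2, and precision is given by 95% Wilson intervals.

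Named were CD74, its known models with a read, its 5 ISM, 3 NIC, 3 NNC and 2 genomic models with the highest lower count (the genomic model after the first, ENCODEHT000453537, had 1 and 2 reads), the 5 genes most alike in category shares, and genes of the class II list. Prefix models, matched exon runs and the long against the short form were chosen after their values were seen. The members and lists were chosen with earlier results of these data known. One listed B cell marker is not reported here.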

Additional observations from a re-analysis of the deposited data

How the results depend on the processing

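No paired analysis was possible because the samples form 1 group. The falls and rises of the CD74 known, ISM and genomic shares and the suffix difference kept their direction and side of the threshold among models of 2 or more exons and models of at least 5 reads, and the known and ISM differences, which alone were tried so, also without genomic models. There was 1 exception: among models of 2 or more exons the genomic difference was 0.0304 percentage points (adjusted p = 1, Fisher's exact test), since nearly all genomic reads lie in 1-exon models, and the genomic share was then 0.0152%. The gene-level log2 ratio of 0.0586 was 0.0350 with TMM scaling (adjusted p = 0.365, exact binomial test) and 0.0586 with no minimum count (adjusted p = 0.0722, exact binomial test). It was -0.41 with known models only and -0.12 without genomic models. Both of these settings kept library totals of all reads, and the median of all genes was then -0.55 and -0.15. With DESeq2 size factors the CD74 ratio was 0.07 and stayed past the threshold. The difference in isoform use was 1.18 percentage points for the short against the long form alone, which was past the threshold. It was 1.14 with the matched suffix models added. That comparison was made for CD74 alone, with no adjustment over genes, so the threshold does not apply to it. Both were chosen after the data had been seen. The class II list had 7 to 12 genes past the threshold, with the lowest number without genomic models, an alternative added later. The share without a replicate is that of the remaining library, given in the report. Inclusion of the 192-base exon at single first exons is limited by depth, at 4 to 27 reads.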
